A study of Sus scrofa with 18 samples.

Results

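The regions described here are H3K4me3 peaks of pig myometrium that carried no H3K27ac peak in any of the 3 tissues profiled. H3K4me3 is a histone mark of promoters, laid down mainly where transcription starts and at CpG-rich promoters. H3K27ac is an acetyl mark of promoters and enhancers in use. In embryonic stem cells many promoters of developmental regulators carry H3K4me3 without acetylation while the gene is held silent by Polycomb proteins. H3K27me3, the Polycomb mark, was not analysed here.

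Both marks were profiled by CUT&Tag, in which a protein A-Tn5 fusion cuts the DNA at antibody-bound sites, in the uterine muscle of Yorkshire gilts on the mesometrial side. The tissues were the inner circular muscle on day 15 of pregnancy (GD15M_CM), the outer longitudinal muscle on day 15 of pregnancy (GD15M_LM) and the circular muscle on day 15 of the estrous cycle (CD15M_CM), with 2 gilts per tissue and an IgG control for each. The 2 gilts of a tissue were pooled before peaks were called, so the 6 peak lists hold no value per gilt and no difference between tissues could be tested against the spread between animals. The endometrium had been removed with a scalpel before the muscle layers were parted, and the pieces were bulk tissue, in which fewer cells of a type and less signal per cell cannot be told apart.

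A member was an H3K4me3 peak of GD15M_CM on chromosomes 1 to 18 or X that overlapped an H3K4me3 peak in both other tissues, had a fold enrichment, as the peak caller gave it, of at least 5, and overlapped no H3K27ac peak in any tissue. Of 33599 H3K4me3 peaks in GD15M_CM, 15143 met the conditions on H3K4me3. Among these, 13277 carried H3K27ac in all 3 tissues, 806 in 2 and 475 in 1. The remaining 585 regions were the members, a share of 3.86%. Members within 10 kb of each other were joined in 535 loci. The members were thus chosen by measured values, the absence of H3K27ac and the fold enrichment in GD15M_CM, so lengths, fold enrichments and acetylation are given below as descriptions with no test. The 3 members just inside the fold limit lay at TRNAP-AGG, PAN2 and PRR3, with fold enrichments of 5.001 to 5.008. Shared regions without H3K27ac just outside it lay at MIEF1, with 4.9999, and at CCDC84, with 4.991. Below the limit there were 2262 more shared H3K4me3 regions without H3K27ac.

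The tissue label was checked on known marker genes. All 10 smooth muscle markers had H3K4me3 in each tissue, and 9, 10 and 10 of them had H3K27ac in GD15M_CM, GD15M_LM and CD15M_CM. Markers of other cells were also marked. All 7 epithelium markers had H3K4me3 in each tissue and 7, 5 and 7 had H3K27ac. Their median percentile of H3K4me3 fold enrichment within the list was 79.4, 59.0 and 78.5 in GD15M_CM, GD15M_LM and CD15M_CM. For the smooth muscle markers it was 74.5, 90.1 and 87.3. Epithelium markers thus ranked above smooth muscle markers in GD15M_CM, and lowest in GD15M_LM. The part of epithelial cells in the regions below was not tested. All 4 placed T cell markers and all 5 endothelium markers had H3K4me3 in each tissue, whereas H3K27ac lay at 2, 1 and 1 of the T cell markers and at 3, 3 and 1 of the endothelium markers. Of 5 macrophage markers, 4, 5 and 5 had H3K4me3 and 3, 4 and 4 had H3K27ac. Of 4 neuron markers, 2, 2 and 3 had H3K4me3 and 1, 2 and 2 had H3K27ac.

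The members were short and weak beside acetylated H3K4me3 regions. Their median length in GD15M_CM was 719 bp and their median fold enrichment 6.14, against 2415 bp and 15.4 for the regions acetylated in all 3 tissues. In GD15M_LM the peaks at the members had a median length of 1106 bp and a median fold enrichment of 7.68, and in CD15M_CM 985 bp and 6.51. The fold enrichment or length of a member in another tissue is that of the strongest overlapping peak there. The share of regions without H3K27ac fell with every step in length: it was 38.7% (165 of 426) up to 500 bp, 16.0% in the next class up to 1000 bp, 4.73% in that up to 1500 bp and 0.345% (15 of 4346) over 3000 bp. By fold enrichment it fell from 20.4% between 5 and 6 to 0.0711% (5 of 7033) at 15 and over. By this rule, strong or broad H3K4me3 regions without acetylation were few. A longer peak has more chance to overlap an H3K27ac peak, so length is tied to the rule.

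**Figure D1:**
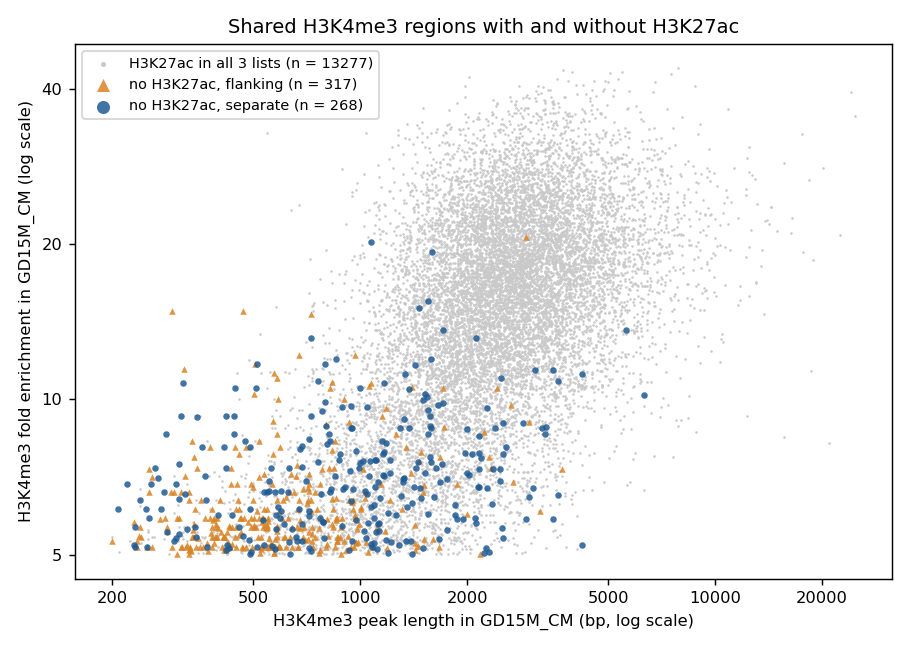
H3K4me3 peak length in GD15M_CM (bp, log scale) against fold enrichment (log scale), for regions acetylated in all 3 tissues (grey, n = 13277) and for the members, split in flanking (orange triangles, n = 317) and separate (blue circles, n = 268). Most members lie at the lower left, with a median length of 719 bp, while 15 are longer than 3000 bp.

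**Figure D2:**
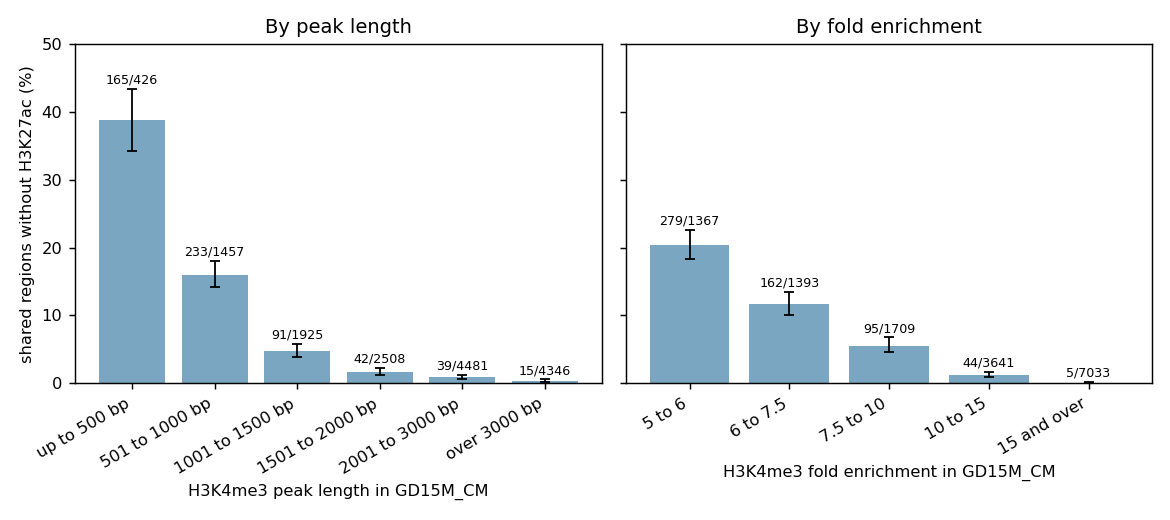
Share of shared H3K4me3 regions without H3K27ac (%) by peak length (left) and by fold enrichment (right) in GD15M_CM. Bars show the share, error bars its 95% Wilson interval and the labels the counts. The share falls from 38.7% to 0.345% along length and from 20.4% to 0.0711% along fold enrichment. A longer peak has more chance to overlap H3K27ac, so length is tied to the rule.

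The members were of 2 kinds, which were told apart after the data had been seen. The first kind, 317 regions, lay within 3 kb of an acetylated H3K4me3 peak of GD15M_CM and are called flanking. Of these, 272 lay under 1 kb from such a peak. At 154 of the 317 the strongest overlapping H3K4me3 peak of another tissue itself overlapped an H3K27ac peak. That H3K27ac peak could be of any of the 3 tissues. The second kind, 268 regions, lay farther away and are called separate. At 7 of the 268 the strongest overlapping H3K4me3 peak of another tissue overlapped H3K27ac in this way. The split by distance to acetylated peaks itself favours a lower count here than at flanking members.

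The 2 kinds differed in size and setting. Flanking members had a median length of 582 bp in GD15M_CM and a median of 629 bp to the nearest H3K27ac peak of any tissue. Separate members had a median length of 1038.5 bp and a median of 19390 bp to the nearest H3K27ac peak. An H3K27ac peak was over 10 kb away at 178 separate members and over 100 kb away at 30. The split used the distance to acetylated peaks, so the difference in distance follows from it.

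**Figure D3:**
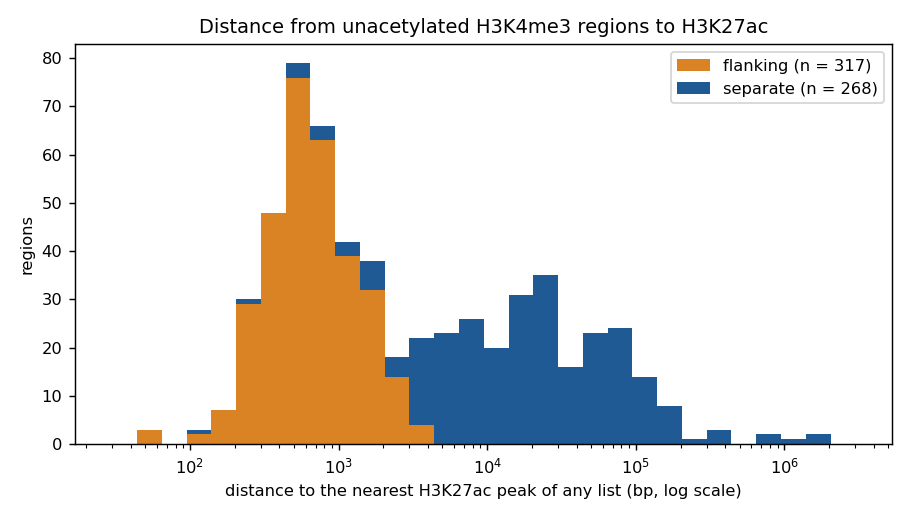
Distance from each member to the nearest H3K27ac peak of any tissue (bp, log scale), with the number of flanking (orange, n = 317) and separate (blue, n = 268) members stacked. The flanking members gather around a median of 629 bp and the separate members around 19390 bp, and 30 members lie over 100 kb away.

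Most members lay at genes. In all, 428 of the 585 (73.2%, 95% Wilson interval 69.4 to 76.6) lay within 3 kb of an end of a RefSeq gene, 126 (21.5%) farther inside a gene and 31 (5.30%) outside. Of the regions acetylated in all 3 tissues, 84.4% lay at a gene end, 11.3% inside a gene and 4.34% outside. The shares at gene ends were alike for flanking (74.1%, 69.0 to 78.6) and separate members (72.0%, 66.4 to 77.0). These intervals cover counting error only. Flanking members were farther from the gene end itself, with a median distance of 1725 bp, than separate members, with 303 bp.

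Chromosome X held more than its share of members. Of 544 shared regions on X, 55 were members (10.1%, 7.85 to 12.9), against 530 of 14599 (3.63%, 3.34 to 3.95) on the autosomes. For separate members the shares were 6.99% (38 of 544) and 1.58% (230 of 14599). The highest share among the autosomes was 7.81% (5.16 to 11.6), on chromosome 16. The separate X regions of highest fold enrichment in GD15M_CM lay at SCML1, a Polycomb-related gene (15.0), GPKOW (10.9), CHST7, a sulfotransferase gene (10.9), HMGB3 (10.2) and ARHGEF6 (9.95).

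At the gene level, 462 of 19484 protein-coding genes (2.37%) had a member within 3 kb of an end, and 182 (0.934%) had a separate member there. Counting the inside of the gene as well, 244 (1.25%) had a separate member. Of all 28073 RefSeq genes, 548 (1.95%) had a member within 3 kb. A further question was which genes carried H3K4me3 within 3 kb but none of it acetylated, at any fold enrichment and in GD15M_CM alone: these were 480 genes (2.46%). The gene lists that follow were read against these shares. The lists of leukocyte, endothelial, mitotic and tRNA genes were written after the leading members had been seen, so their counts describe these members and are no independent evidence. The genes of those lists and of chromosome X were also named after their values were seen.

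Developmental regulators had members about as often as other genes, and separate members and unacetylated H3K4me3 more often. The lists of HOX, other homeobox, FOX, SOX, T-box and GATA, basic helix-loop-helix and zinc finger factors and of developmental signalling genes, without genes that are also on a leukocyte list, placed 487 genes. Of these, 14 (2.87%) had a member within 3 kb, near the 2.37% of all protein-coding genes, and 12 (2.46%, 1.42 to 4.26) had a separate member, against 0.934%. By contrast 224 of the 487 (46.0%) had an acetylated H3K4me3 peak, against 68.4% of all protein-coding genes. No H3K4me3 was found at 227 (46.6%, against 29.2%), and 36 (7.39%, against 2.46%) had H3K4me3 that was never acetylated. Among the 36, 11 were members, 7 were shared by the 3 tissues under a fold enrichment of 5 and 18 lacked an H3K4me3 peak in another tissue. So the unacetylated state was found at developmental genes mostly as weak peaks outside the members.

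Among 129 homeobox factors outside the HOX clusters, 5 genes had a member within 3 kb, all separate. DLX4, a distal-less factor, had a region of 1290 bp across its gene end at chr12:26154375-26155664, with a fold enrichment of 8.80 in GD15M_CM, 3.71 in GD15M_LM and 8.95 in CD15M_CM. Both circular muscles thus stood above the longitudinal one there. LHX6, a LIM homeobox factor, had 7.63, 7.73 and 6.74 in the same order at its gene end, close values in the 3 tissues. A second separate region inside LHX6 had 5.53, 3.28 and 3.29. MNX1, a factor of motor neurons and pancreas, had 7.38, 7.65 and 3.97. ONECUT2, a factor of liver and nervous system, had 6.28, 5.19 and 5.55, with the nearest H3K27ac peak of any tissue 121 kb away. At NKX1-2 the fold enrichment was 6.08, 4.49 and 11.4, highest in the cyclic circular muscle. The HOX clusters themselves were largely acetylated: 31 of 36 HOX genes (86.1%) had acetylated H3K4me3, against 68.4% of all protein-coding genes. None had H3K4me3 without any acetylation, and the only member lay at HOXB8 (5.27, 5.77 and 6.49), 10.8 kb from H3K27ac.

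Members within 3 kb lay at 1 of 43 FOX genes (2.33%), 2 of 48 basic helix-loop-helix genes (4.17%), 3 of 80 zinc finger and other factors (3.75%) and 1 of 21 T-box and GATA genes (4.76%). The share of all protein-coding genes was 2.37%, and counts this small cannot be told from it. FOXB1, a forkhead factor of the nervous system, had a region of 2527 bp with a fold enrichment of 5.39, 4.22 and 8.38 in GD15M_CM, GD15M_LM and CD15M_CM. TCF15, a basic helix-loop-helix factor of the somites, had 6.76, 4.93 and 5.99 over 2146 bp. SALL4, a zinc finger factor of pluripotent cells, had 8.87, 2.89 and 3.57, highest in the pregnant circular muscle. BCL11A, a zinc finger factor of neurons and B cells, had 3 regions in its gene, of which the region nearest the gene end had 5.88, 7.76 and 7.66 over 2104 bp. BCL11B, its relative needed for T cells, had 8.80, 3.91 and 6.59 at the gene end. A second separate region of BCL11B, of 717 bp within 3 kb of that end, had 8.37, 6.22 and 4.45, lowest in CD15M_CM. No SOX gene among 19 had a member, which in a list of this size cannot be told from 2.37% either. Flanking members within 3 kb of a gene end in these families lay at TAL1, a factor of blood and endothelium (8.66, 10.3 and 6.47), and at TBX21, the T-box factor of type 1 helper T cells (7.32, 3.95 and 5.40).

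Among signalling genes, members lay at the ligands WNT4 and WNT6 and at SEMA3D, a guidance molecule. WNT4, which is needed for the development of the female tract, had a region of 578 bp with a fold enrichment of 5.98, 5.13 and 6.79 in GD15M_CM, GD15M_LM and CD15M_CM. WNT6 had 5.94, 6.37 and 9.61 at a region of 716 bp and 5.13 at a second region of 576 bp. In each of the other tissues both regions overlapped a single longer peak. SEMA3D was flanking: its 389 bp region had 5.41 in GD15M_CM, and the peaks there had 29.0 and 15.9 in the other tissues.

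Some developmental genes had a member inside the gene and none within 3 kb of an end, among them RUNX1, with 2 flanking regions, and OSR1, with a flanking and a separate one. GATA3, a factor of T cells and epithelia, had a region of 4203 bp with a fold enrichment of 11.2, 15.7 and 11.3 in GD15M_CM, GD15M_LM and CD15M_CM, and H3K27ac was no nearer than 185 kb. NR5A2, a nuclear receptor of ovary and liver, had 6.53, 4.83 and 7.43 over 3610 bp. TFAP2A had 13.1, 10.4 and 14.5 over 2123 bp, and a second region of 1099 bp with 6.76, 8.59 and 5.67. The longer region of TFAP2A lay at the gene end of LOC106504315. The regions of GATA3 and NR5A2 and the longer one of TFAP2A had like lengths across the tissues. The range was from 1795 bp at TFAP2A in CD15M_CM to 4244 bp at GATA3 in CD15M_CM.

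Leukocyte genes were more often members than developmental ones. The lists of T and NK, B, myeloid and pan-leukocyte genes placed 259 genes, of which 42 (16.2%) had a member and 36 (13.9%, 10.2 to 18.6) a separate member. H3K4me3 that was never acetylated lay at 66 of the 259 (25.5%), of which 33 were members, 11 were shared under a fold enrichment of 5 and 22 lacked a peak in another tissue. Counted by region, 48 of the 268 separate members (17.9%, 13.8 to 22.9) lay at or in a leukocyte gene. The same was true of 3.15% of flanking members, 3.51% of the regions acetylated in 1 or 2 tissues and 0.723% of those acetylated in all 3. Regions at or in developmental genes made up 7.46% (4.88 to 11.2) of separate members and 3.93% of all members. They made up 4.29% (3.31 to 5.55) of the regions acetylated in 1 or 2 tissues and 1.64% of those acetylated in all 3. Members as a whole thus held no larger share than regions acetylated in 1 or 2 tissues.

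T and NK cell genes gave 16 of 91 genes with a separate member (17.6%, 11.12 to 26.7). The longest member of all, 6320 bp at chr9:45641205-45647524, covered the ends of CD3D and CD3G, which encode subunits of the CD3 complex of the T cell receptor. Its fold enrichment was 10.2 in GD15M_CM, 10.1 in GD15M_LM and 4.90 in CD15M_CM, and the peak was 6320, 5430 and 830 bp long in these tissues. The peak was thus long in both pregnant muscles, and the strongest peak overlapping it in the cyclic one was short. Its fold enrichment was below the median of all shared regions, 14.3 in GD15M_CM and 18.3 in GD15M_LM. CD3E, another subunit, had 5.01, 7.94 and 4.41, and CD247, the zeta chain, had 5.86, 8.78 and 4.88. Genes of the signalling chain below the receptor were also members. The adaptor LAT had 8.47, 7.18 and 5.04, and the adaptor LCP2 had 5.86, 8.96 and 6.71. The kinase PRKCQ differed from these, with 7.70, 8.16 and 13.4, highest in the cyclic muscle. The death ligand gene FASLG had 9.66, 7.91 and 4.23.

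Genes of the pan-leukocyte, myeloid and endothelial lists also had separate members. Pan-leukocyte genes gave 14 of 80 (17.5%), among them PTPRC, which encodes CD45 (7.35, 8.51 and 4.45 at the region on its gene end), the tetraspanin gene CD53 (11.4, 10.1 and 7.53), the lymphoid factor IKZF1 (9.61, 13.5 and 8.22), and SPN, which encodes CD43 (9.01, 7.68 and 3.84). SASH3, an adaptor gene of lymphocytes on chromosome X, had a region of 4223 bp with 5.22, 8.25 and 3.94. Myeloid genes gave 6 of 64 (9.38%), such as TLR6, a Toll-like receptor gene (9.53, 10.7 and 10.7), C1QB (5.02, 5.87 and 5.03) and CD80, a costimulatory ligand of T cells (5.56, 7.42 and 2.32). No B cell gene among 24 had a member, a count that so short a list cannot tell from the 2.37% of all protein-coding genes. Endothelial genes gave 4 of 43 (9.30%, 3.68 to 21.6), including the receptor genes KDR (6.45, 10.9 and 10.8) and TEK (7.59, 10.7 and 6.37).

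Genes of the muscle itself were nearly all acetylated. Of 20 smooth muscle contractile genes, 19 (95%) had acetylated H3K4me3, beside 68.4% of all protein-coding genes. The only member was a flanking region of 382 bp at SYNPO2 (1 of the 20 genes). This was not particular to muscle genes. Acetylated H3K4me3 lay at 96.4% of 83 ribosomal protein genes and 98.5% of 68 oxidative phosphorylation genes, which had 3 and 2 flanking members. None of these lists had a separate member, which at the 0.934% of all protein-coding genes is a count that lists of this size cannot tell from the background. No germline gene among 57 had a member, which likewise cannot be told from the 2.37% of all protein-coding genes with one. Mitotic cell cycle genes gave 2 of 64 with a separate member, HMGB3, a chromatin protein gene (10.2, 13.1 and 11.0), and CCNB2, a cyclin gene (10.1, 16.96 and 18.03). Neural channel, receptor and transmitter genes gave 1 separate member among 286, at the potassium channel gene KCNB2 (6.76, 10.7 and 10.3), 264 kb from H3K27ac.

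**Figure D4:**
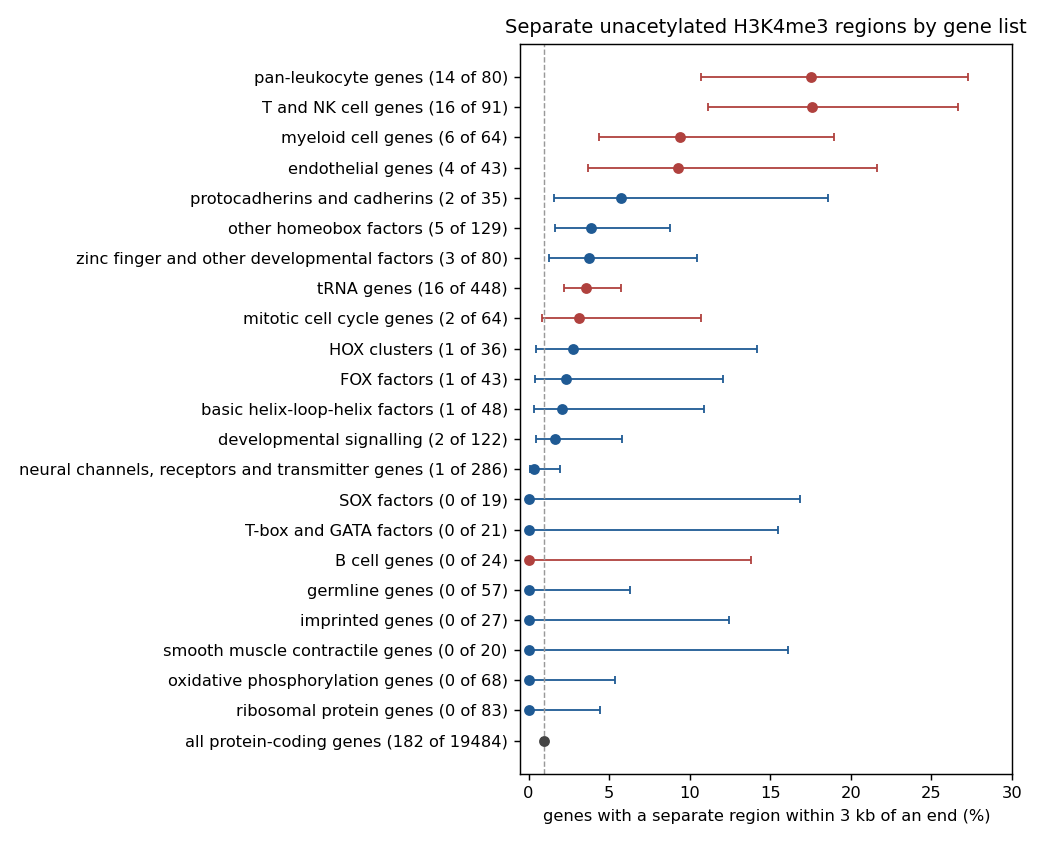
Share of the genes in each list with a separate member within 3 kb of a gene end (%), with 95% Wilson intervals that cover counting error only and the counts in the labels. Lists written after the leading members had been seen are red, the others blue, and the dashed line marks the 0.934% of all protein-coding genes. The pan-leukocyte, T and NK, myeloid and endothelial lists lie to the right, at up to 17.6% of T and NK cell genes. The B cell, contractile, ribosomal and oxidative phosphorylation lists are at 0, which lists of these sizes cannot tell from the dashed line.

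The members of highest fold enrichment were of mixed kinds. The strongest, with 20.7, 22.9 and 20.7 in GD15M_CM, GD15M_LM and CD15M_CM, was a flanking region of 2938 bp at chr7:20920439-20923376 that covered several tRNA genes. Of 448 tRNA genes 33 had a member within 3 kb, in 14 regions, and 9 of the 14 lay between 20 and 23 Mb of chromosome 7. TRNAS-AGA, in the same stretch, was also among the 10 strongest (13.6, 17.2 and 14.2). tRNA genes lie close together and in near-identical copies, so reads from them can be hard to place. Next came LOC100627091, 4126 bp from the region (20.2, 12.03 and 10.7), and LOC100518738, whose gene body held the region (19.3, 24.3 and 20.2). GREB1, a target gene of the estrogen receptor, had 15.5, 3.02 and 15.7. SCML1 had 15.0, 12.7 and 11.0. The flanking regions at TMPO (14.8, 12.8 and 14.5), CDC42BPA (14.8, 30.1 and 25.4) and MIR99A (14.6, 18.3 and 13.3) followed.

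PCDH17, a protocadherin gene, was the only gene among both the 10 strongest and the 10 longest members. Its region covered 5621 bp at chr11:30510374-30515994, with a fold enrichment of 13.6, 15.0 and 12.4 and a length of 5621, 5890 and 5764 bp in GD15M_CM, GD15M_LM and CD15M_CM. The nearest H3K27ac peak of any tissue was 1599 kb away. The mark was thus broad, of like strength in every tissue and far from any acetylation. Among the 10 longest, CHST7 (10.9, 14.6 and 14.2) had a peak of 3600, 3298 and 3752 bp in the 3 tissues. ADRB1, the beta-1 adrenergic receptor gene, had 3330 bp with 8.82, 3.61 and 8.70, lowest in the longitudinal muscle. RUNX3, a factor of cytotoxic T cells, had 3482 bp inside the gene with 11.4, 6.76 and 3.83, and its peak in CD15M_CM was 241 bp.

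Fold enrichments of separately called lists are not on a common scale, so regions were also compared by the percentile of their fold enrichment within each H3K4me3 list. Both comparisons below share GD15M_CM, the list the members were taken from. In GD15M_LM, 85 members ranked at least 20 points higher than in GD15M_CM (14.5%) and 92 at least 20 points lower (15.7%). With members taken from GD15M_LM instead, these counts were 114 and 21 of 582. With members taken from CD15M_CM, which is on neither side of this comparison, they were 115 and 53 of 576. The balance thus changed with the list the members came from, and was near even only with GD15M_CM. Over all 15143 shared regions the shares were 5.38% and 7.89%, and over the 4469 with a fold enrichment of 5 to 10, where most members lie, 11.9% and 9.42%. In CD15M_CM, 77 members ranked higher by that margin (13.2%) and 71 lower (12.1%), with 5.12% and 3.34% of all shared regions and 11.3% and 5.42% of those of 5 to 10. Nearly all the higher ranks were at flanking members: 83 of the 85 in GD15M_LM and 74 of the 77 in CD15M_CM.

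The largest gaps were of the same kind. The members that ranked highest above GD15M_CM were all flanking, at TES, ARHGAP5 and LOC100624113 in GD15M_LM and at FCGRT, BRWD1 and RB1CC1 in CD15M_CM. At TES the region of 315 bp had a fold enrichment of 5.17 in GD15M_CM and the overlapping peak in GD15M_LM had 41.8. At FCGRT the region had 5.04 and the peak in CD15M_CM 37.2. The members that fell furthest in GD15M_LM were separate: GREB1 had a percentile of 80.0 in GD15M_CM and 8.61 in GD15M_LM. SALL4 had 65.3 and 6.17, and SPRY3, a Sprouty family gene of growth factor signalling, had 62.3 and 4.53. The members that fell furthest in CD15M_CM lay at CLEC1A (61.8 in GD15M_CM and 2.23 in CD15M_CM), LOC110255360 (72.4 and 15.4) and CD80 (55.3 and 1.49). CD80 was the only separate region of these 3.

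Few separate members changed rank by that margin, and more of them ranked lower than higher. At least 20 points higher were 2 in GD15M_LM and 3 in CD15M_CM, and at least 20 points lower were 29 and 28. In GD15M_LM, 191 of the 268 (71.3%) ranked below GD15M_CM, and in CD15M_CM 149 (55.6%). Over all 15143 shared regions these shares were 54.9% and 42.5%, and over the 4469 with a fold enrichment of 5 to 10, 47.2% and 28.8%. Among the 48 at or in leukocyte genes, 34 (70.8%) ranked below GD15M_CM in GD15M_LM and 39 (81.3%) in CD15M_CM, where their median percentile was 52.6 against 61.6 in GD15M_CM. Their median peak length in the same lists was 1597 (GD15M_CM), 1834 (GD15M_LM) and 943 bp (CD15M_CM). Among the 20 at or in developmental genes, 17 ranked lower in GD15M_LM and 10 in CD15M_CM, and the medians were 58.0, 48.7 and 61.4 in GD15M_CM, GD15M_LM and CD15M_CM. Over all 268 separate members the medians were 60.0, 56.6 and 60.4, so GD15M_LM was lowest there as well. Members passed the fold limit through GD15M_CM, which by itself favours higher ranks in that list. With the members taken from CD15M_CM instead, 17 of 29 leukocyte regions (58.6%) ranked lower in CD15M_CM than in GD15M_CM, beside 26.6% of all 293 separate regions, and 12 of 21 developmental regions (57.1%) ranked lower in GD15M_LM, beside 51.2%. With the members taken from GD15M_LM, 38 of 53 leukocyte regions (71.7%) ranked lower in CD15M_CM, beside 41.1% of all 348, and 8 of 16 developmental regions (50%) ranked lower in GD15M_LM, beside 41.4%. These are descriptions of 1 pooled list per tissue. The T cell markers had a median H3K4me3 percentile of 67.0, 59.7 and 54.7 in GD15M_CM, GD15M_LM and CD15M_CM, and the part of cell numbers in these ranks was not tested.

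**Figure D5:**
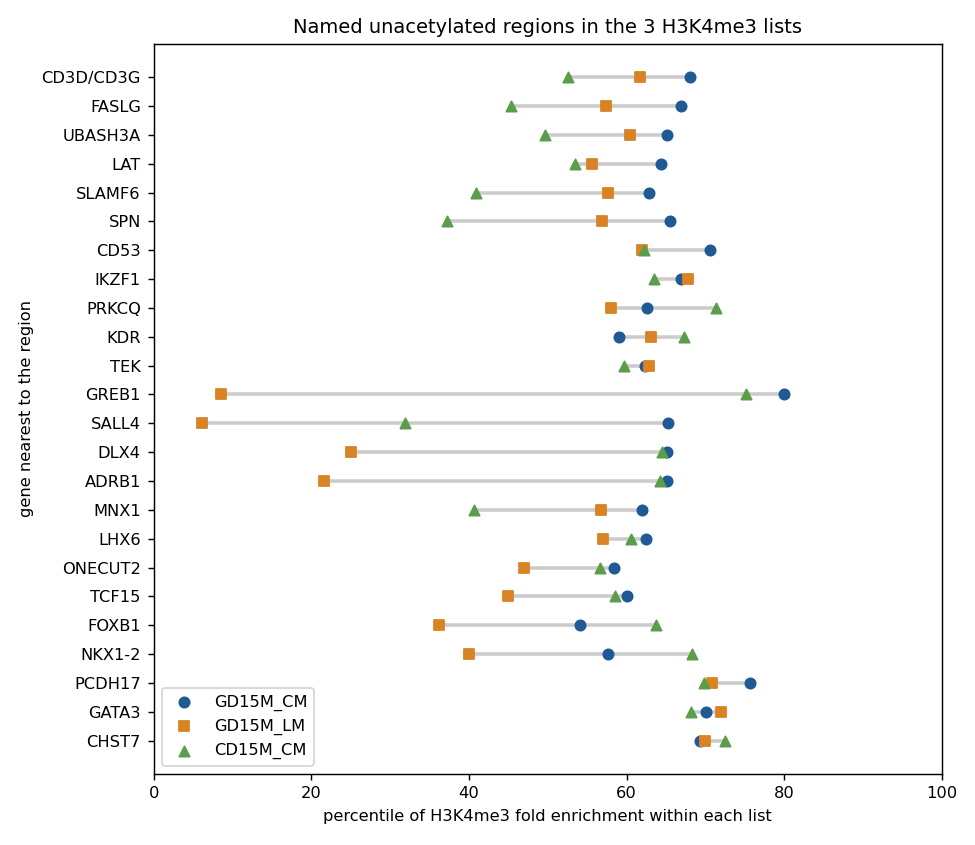
Percentile of H3K4me3 fold enrichment within each list for 24 separate members, by nearest gene, in GD15M_CM (blue circles), GD15M_LM (orange squares) and CD15M_CM (green triangles). They were picked by hand, and not all are named in the text. The T cell regions shown at the top mostly rank lowest in CD15M_CM (CD3D/CD3G 52.6). The T cell gene LCP2, not shown, ranks highest there (60.5). GREB1, SALL4, DLX4 and ADRB1 rank lowest in GD15M_LM (8.61, 6.17, 25.1 and 21.7).

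The number of members depended on which H3K27ac peaks were counted. When H3K27ac peaks counted only with −log10 p of at least 10 and a fold enrichment of at least 5, 4404 regions lacked H3K27ac. On the full lists, the developmental genes with such a region within 3 kb rose in number from 16 to 113. The leukocyte genes with a separate one rose from 36 to 99. All regions rose from 585 to 4404 and separate ones from 268 to 3461 with the same change. The share over all genes was not computed at this setting, so these counts describe no preference for either list. A member is therefore a region without even a weak H3K27ac peak. The regions added by the strict setting had H3K27ac peaks below its limits only, but such peaks were not always weak. In GD15M_CM the H3K27ac peak at ACTG2 (4.84) missed the fold limit and yet stood at percentile 84.4 of its list. The same held for MYLK in GD15M_LM (4.81, percentile 74.3) and KRT8 in CD15M_CM (4.90, percentile 84.9). Most H3K27ac peaks of each list thus fell under the fold limit, and the added regions cannot be called weakly acetylated. The list from which members are taken also mattered: with CD15M_CM as the start there were 576 regions, of which 123 ranked at least 20 points higher and 21 lower in CD15M_CM than in GD15M_CM, and 21 leukocyte genes had a separate region.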

How the data were processed

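CUT&Tag libraries of H3K4me3, H3K27ac and IgG (18 in all) were made from GD15M_CM, GD15M_LM and CD15M_CM on day 15, with 2 gilts per tissue. Per the submitters' processing notes and the methods, the authors aligned reads to Sus scrofa 11.1 with BWA 0.7.17-r1188, filtered them with SAMtools 1.9 and Picard 2.8.3 and called peaks on the pooled replicates with MACS2 2.2.6. The deposited lists give each peak's position, length, fold enrichment (a ratio) and −log10 p, as the authors obtained them from MACS2. Whether IgG was the control in peak calling is not given in the sources used here. Of 2 columns with unreadable names, −log10 p was identified from the study's supplement, and −log10 q was inferred and not used. The lists carry no read counts, so the depth behind a value is unknown here, and the single-peak p-values were used only as a filter or to rank.

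Peaks overlapped when they shared at least 1 bp. Genes were 28073 RefSeq genes placed on chromosomes 1 to 18 and X. Strand was not used, so either gene end stood for the gene start that had been planned, with a window of 3 kb that also takes in 3′ ends. Percentiles were ranks of fold enrichment within a list. Shares have 95% Wilson intervals. No test across samples was made. Members and lists were chosen with earlier results of these data known. Named genes were those nearest to the 10 strongest and 10 longest members, developmental genes with a member (up to 20), 3 regions on each side of the fold limit, and the 3 largest percentile gaps per direction and pair of lists. A few genes are not reported here. Scripts used Python 3.11.15, pandas 2.3.3, NumPy 2.4.6, SciPy 1.17.1 and Matplotlib 3.10.9. Overlaps, distances and gene ends were tested on 800 simulated regions, with 0 differences from a direct count. Alternatives were another H3K27ac threshold, distance or number of peaks, another fold limit, overlap, joining of peaks or starting list, a 1 kb window, protein-coding genes only and ranking by −log10 p. The base composition of the regions and RNA-seq were not analysed here.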

Additional observations from a re-analysis of the deposited data

How the results depend on the processing

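No paired analysis was possible because both replicates of each tissue were pooled before peak calling, and for the same reason no replicate could be left out. The CpG ratio of member promoters, planned as an alternative result, was not run. Of 113 recomputed values, 51 stayed within 1.5 times a count or within the interval of a share or median, and 62 moved. In the lists below, ranks are given as members at least 20 points higher and lower in GD15M_LM, then higher and lower in CD15M_CM, than in GD15M_CM. The value of each result in the report is 585 regions, 268 separate, 73.2% at a gene end, 719 bp, 1576 bp to H3K27ac, 16 developmental genes, 36 leukocyte genes with a separate member, and ranks of 85, 92, 77 and 71.

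With strict H3K27ac peaks only, there were 4404 regions, 3461 separate, 77.6% at a gene end, a median length of 1524 bp, 23125 bp to H3K27ac, 113 developmental and 99 leukocyte genes, and ranks of 285, 512, 290 and 230. With no H3K27ac within 1 kb there were 343 regions of a median 879 bp, 11114 bp from H3K27ac, with ranks of 8, 47, 6 and 46. Equal numbers of top H3K27ac peaks (57010 per list) moved only the median length, to 782 bp. A fold limit of 10 left 49 regions, 29 separate, 79.6% at a gene end, of a median 1069 bp, 4016 bp from H3K27ac, with 0 developmental and 4 leukocyte genes and ranks of 1, 5, 1 and 5. An overlap of at least 50% moved the distance to 2182 bp and the lower ranks to 54 and 41. Joining H3K4me3 peaks under 1 kb apart gave 280 regions of a median 1198 bp, 14916 bp from H3K27ac, with ranks of 8, 21, 9 and 25. Starting from GD15M_LM moved the median length to 916.5 bp, the distance to 4783.5 bp and the lower ranks to 21 and 41. Starting from CD15M_CM moved them to 877.5 bp, 2431.5 bp, 53 lower in GD15M_LM, 123 higher and 21 lower in CD15M_CM, and left 21 leukocyte genes with a separate member, while 19 developmental genes had a member. The share of separate leukocyte regions ranked lower in CD15M_CM than in GD15M_CM (81.3%) moved to 58.6% when starting from CD15M_CM, and that of developmental regions ranked lower in GD15M_LM (85%) to 50% starting from GD15M_LM and 57.1% starting from CD15M_CM, both also added after seeing the data. A window of 1 kb lowered the share at a gene end to 43.8%, and protein-coding genes alone to 68.2%. Separate members only, an alternative chosen after seeing the data like the counts of separate members and leukocyte genes, were 268 regions of a median 1038.5 bp, 19390 bp from H3K27ac, with ranks of 2, 29, 3 and 28. Ranking by −log10 p moved no count past 1.5 times. Joined peaks, the stricter distance and the separate members take away pieces beside acetylated peaks by construction. The cause of the other changes was not tested. The lists hold pooled peaks with no read counts, so depth could not be used to judge a missing H3K27ac peak.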

Other observations

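A few more separate members lay far from any acetylation. CDH12, a cadherin gene of neurons, had a region of 1035 bp with a fold enrichment of 5.39 in GD15M_CM, 9.12 in GD15M_LM and 16.7 in CD15M_CM, and the nearest H3K27ac peak of any tissue was 1857 kb away. DPP10, which encodes an auxiliary subunit of potassium channels, had 5.19 in GD15M_CM and lay 1258 kb from H3K27ac. SNAP91, a gene of synaptic vesicle recycling, had 7.74 in GD15M_CM and lay 192 kb away. ESRRG, an orphan nuclear receptor gene, held a region of 1161 bp inside the gene with 7.83, 125 kb away. These genes were named after their values were seen.

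IGF2, a fetal growth factor gene expressed from the paternal allele, held a separate region of 2369 bp inside the gene, with a fold enrichment of 7.33 in GD15M_CM, 12.9 in GD15M_LM and 9.66 in CD15M_CM and the nearest H3K27ac peak 35.4 kb away. Of 27 imprinted genes placed, 18 (66.7%) had acetylated H3K4me3, near the 68.4% of all protein-coding genes. Among the 27, 1, NNAT, had a member within 3 kb, a flanking region of 305 bp.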
